A study of Mus musculus with 20 samples.

Results

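The genes described here build ribosomes in the nucleolus. They form a list of 40 ribosome biogenesis and nucleolar genes, and their members are all probe sets whose only gene symbol in the platform annotation is one of the 40. That gave 66 probe sets for 37 genes, out of 22626 probe sets without the array's controls and 12394 genes with a probe set of their own. Of the 37 genes, 23 had several probe sets and 14 had 1. Dkc1, Utp14a and Nob1 were not analysed here.

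Ribosomal RNA is transcribed in the nucleolus by RNA polymerase I. Its precursor is then modified under the guidance of small nucleolar RNAs, folded and cut by a large set of assembly factors, and packed with ribosomal proteins into a small and a large subunit. The work consumes much of a growing cell's energy, muscle fibres raise it when they grow, and the transcription factor MYC is known to drive many of its genes.

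The cells were C2C12 myotubes, multinucleated muscle cells formed by an established mouse myoblast line after 96 h in medium with 2% horse serum. They stayed 2 h in medium with 0.5% horse serum and H2O2, a diffusible oxidant, at 0, 1, 10, 100 or 1000 µM. Each dose has 4 arrays, 20 in all, each an Affymetrix Mouse Genome 430A chip carrying total RNA of 1 sample, and the myotubes without H2O2 in the same medium are the controls. No allele, transgene or other agent is named for any group. The arrays are called replicates, but no source used here says whether each came from a culture of its own, so the p-values take in no more than the spread of these samples, and that spread may be technical. A culture is a bulk sample, in which fewer cells of a type and less RNA per cell cannot be told apart.

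A signal is the intensity deposited for a probe set on 1 array, on a linear scale common to all arrays, and a difference is that of the mean log2 signals of 2 groups, so that 1 stands for a doubling. A gene is represented by its tested probe set of highest mean log2 signal, called its brightest, and for some genes the others are given too. Levels of different probe sets are not compared. The words rose and fell are kept for differences called by limma, at an adjusted p under 0.05.

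The defining markers of myotubes were present: 13 of 14 symbols listed were tested, among them Myog, Ckm, Acta1 and Myh3. The other symbol, Tmem8c, is an old name of Mymk, which was tested. The summed signal of the 13 was 76364 to 95102 on the untreated arrays. It was 95427 to 102532 at 1 µM and 99810 to 105110 at 1000 µM, both without overlap with the untreated range, and 88899 to 119859 at 10 µM and 90111 to 105591 at 100 µM, both with overlap. Of the 12 markers of cycling undifferentiated cells 11 were tested, and of the 8 fibroblast markers 6 were. Only 1 of 8 leukocyte symbols and 0 of 5 adipocyte markers passed the filter on dim probe sets. The leukocyte symbols include an old and a new name of 1 gene, Emr1 and Adgre1. The first principal component of all tested probe sets, 28.2% of the variance, set 5 arrays apart from the other 15 at every dose. They are the 4 arrays numbered 1 in their titles and the 10 µM array whose title has no number, which is written first among the 10 µM arrays below. Each dose has exactly 1 of them. Results are therefore also given with a term for these 5 arrays in the fit, and within the 15 others.

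The counts that follow come from the fit by dose alone, which leaves the gap between the 5 arrays and the others in the spread. With a term for the 5 arrays, described further below, 6 of 37 rose at 1000 µM (7.64% of all genes) and 3 of 37 fell (14.7%). At the brightest probe sets, 0 of 37 were called at 1 µM, where 0% of all 8159 genes tested were, and 0 of 37 at 10 µM, where 0.0123% were. At 100 µM 0 of 37 had risen or fallen, against 0.993% of all genes risen and 0.404% fallen. At 1000 µM, the dose with the widest response, 0 of 37 had risen or fallen, while 2.64% of all genes had risen and 8.05% had fallen. Between 100 and 1000 µM it was again 0 of 37, against 0.76% of all genes risen and 3.62% fallen, and the moderated F-test over the 5 doses called 0 of 37 against 7.81% of all genes.

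At an unadjusted p under 0.05 the counts were 4 of 37 at 1 µM (6.61% of all genes), 4 of 37 at 10 µM (4.99%), 2 of 37 at 100 µM (11.5%), 6 of 37 at 1000 µM (25%) and 4 of 37 between 100 and 1000 µM (17.5%). The median difference of the 37 genes was 0.06, 0.10, 0.11 and 0.05 at the 4 doses in rising order, beside -0.02, -0.02, -0.02 and -0.05 for all genes. More of the 37 lay above 0 than below it, 27, 31, 28 and 23 at the 4 doses, and 17 did between 100 and 1000 µM, where their median was -0.01 and that of all genes -0.03. These comparisons with untreated myotubes share the same 4 control arrays.

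The scaling of the arrays bears on directions at 1000 µM. Centring each array on its median moved the median of all genes from -0.05 to 0.08 and that of the 37 from 0.05 to 0.17, a shift of about the same size. Over all genes the calls at 1000 µM went from 215 risen and 657 fallen to 705 risen and 306 fallen, at 100 µM from 81 and 33 to 104 and 24, and between the 2 doses from 62 and 295 to 129 and 149. Under median centring 5 of the 37 rose at 1000 µM, Ncl, Npm1, Fbl, Nop10 and Rrp1, and 0 fell. Quantile normalization gave 188 risen and 276 fallen over all genes at 1000 µM, and 103 and 27 at 100 µM, and called 0 of the 37. The number of the 37 above 0 at 1000 µM was 23 as deposited, 29 with median centring and 25 with quantile normalization.

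A p that misses the threshold does not show that a gene stayed level, so the intervals matter. They are 95% intervals of the brightest probe sets in the fit by dose alone. At each dose those of all 37 genes lay within a difference of 1 in either direction from the untreated arrays. They lay within 0.5 for 28 genes at 1 µM, 28 at 10 µM, 26 at 100 µM and 22 at 1000 µM. At the median gene the interval reached 0.30 to either side. The widest reaches at 1000 µM were down to -0.91 for Rrp1b and up to 0.84 for Nop58. Between 100 and 1000 µM 36 of the 37 intervals stayed within 1, and that of Rrp1b reached down to -1.04. No intervals were taken for the other probe sets, and those of a gene can differ. For Gnl2 the dim 1437566_at was at -0.94 (SE 0.19) at 1000 µM and the brightest at 0.03.

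Groups without overlap were few. At 100 µM 3 of 37 genes, Nhp2, Rrp9 and Ddx56, had all arrays above the untreated ones (4.33% of all genes), and 1 of 37, Bms1, had all below (5.22%). These are the brightest probe sets. At the second probe set of Nhp2 the 100 µM difference was -0.09, and the groups overlapped. At 1000 µM 4 of 37, Npm1, Fbl, Nop10 and Rrp1, lay above (6.96% of all genes) and 0 of 37 below (13.1%). None of these genes was called at the brightest probe set in the fit by dose alone. Other fits called some of them. The 4 above at 1000 µM rose with median centring (8.64% of all genes). Npm1 and Nop10 rose with the term for the 5 arrays (7.64%). Bms1 fell at 100 µM with array weights (3.36%). With quantile normalization 0 of the 37 were called.

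**Figure D1:**
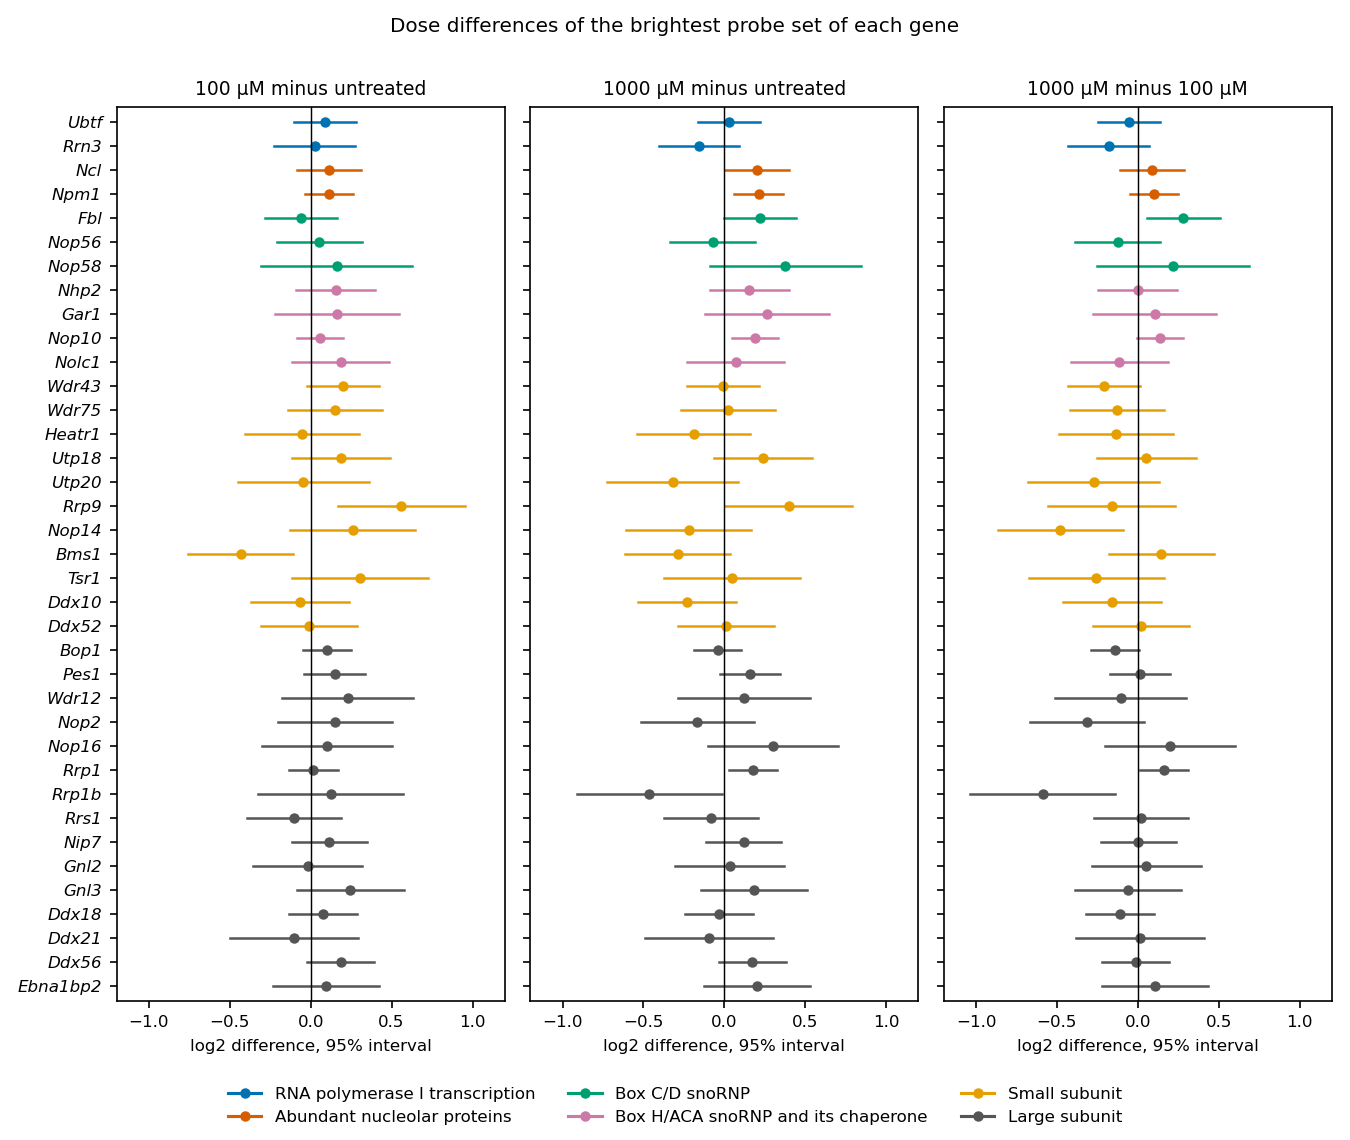
Log2 difference (x axis) of the brightest probe set of each of the 37 genes (y axis, coloured by role) at 100 and 1000 µM H2O2 against untreated myotubes and at 1000 against 100 µM, with points for the estimates and lines for their 95% intervals, 4 arrays a group. The points at 1000 µM run from -0.46 for Rrp1b to 0.40 for Rrp9, and none was called in the fit by dose alone.

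Transcription of ribosomal RNA is represented by Ubtf, the upstream binding factor that opens ribosomal DNA, and Rrn3, which brings RNA polymerase I to the promoter. The signals of Ubtf were 698, 828, 847 and 839 on the untreated arrays and 754, 833, 814 and 869 at 1000 µM. The array numbered 1 was the lowest of its dose in both groups, and the groups overlapped. The difference at 1000 µM was 0.03, with a 95% interval from -0.16 to 0.22, and it was not called. The signals of Rrn3 were 669.5, 491, 488 and 525 on the untreated arrays and 603, 444, 436 and 467 at 1000 µM. Here the array numbered 1 was the highest of its dose in both groups, and the groups overlapped. Its difference was -0.16, with a 95% interval from -0.41 to 0.09, and at 100 µM it was 0.02. The dimmer second probe set of Ubtf gave -0.12 (SE 0.12, adjusted p = 0.572) at 1000 µM.

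Nucleolin (Ncl) and nucleophosmin (Npm1) are the abundant proteins of the nucleolus, the first binding nascent ribosomal RNA and the second acting as a chaperone of assembly and export. The signals of Ncl at its brightest probe set were 4887, 5440.3, 5249.8 and 4991 on the untreated arrays and 7266, 5303, 5806 and 5464 at 1000 µM. The 1000 µM array numbered 1 stood highest, and the groups overlapped. The difference was 0.20, with a 95% interval from 0.01 to 0.40, and an adjusted p of 0.179. Its other 3 probe sets gave 0.02, -0.13 and 0.01, none called.

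Npm1 has 2 probe sets, both bright. At 1432416_a_at its signals were 3537, 4169.8, 4150.4 and 4053 on the untreated arrays, 5867, 4438, 4454 and 4341 at 1 µM, 4584, 4338, 4254 and 5078 at 10 µM, 4259.5, 4449.7, 4632 and 4404 at 100 µM and 7419, 4551, 4756 and 4676 at 1000 µM. The 1000 µM array numbered 1 was far above the other 3 of that dose, and the untreated array numbered 1 was the lowest of the 20. All 4 arrays at 1000 µM were above all 4 untreated ones. This probe set rose at 1000 µM by 0.40 (SE 0.13, adjusted p = 0.0467). Without the 1000 µM array numbered 1 the difference was 0.23 with an adjusted p of 0.138, and the call was lost in 6 of the 8 fits that left out 1 array of the 2 groups, all but those without the second or the fourth 1000 µM array (differences from 0.23 to 0.47, adjusted p from 0.0419 to 0.138).

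At the brightest Npm1 probe set, 1415839_a_at, the signals were 4726, 5332, 5396 and 5076 on the untreated arrays, 5498, 5098, 5319.5 and 5088 at 1 µM, 5444, 5165, 5262 and 6127 at 10 µM, 5329, 5439.7, 6203 and 5249 at 100 µM and 6228, 5920.2, 5810.0 and 5801 at 1000 µM. The 1000 µM arrays again lay above all untreated arrays. The 10 and 100 µM arrays overlapped with both groups, and the 1 µM arrays with the untreated ones but not with the 1000 µM ones. The difference at 1000 µM was 0.21 (SE 0.07, adjusted p = 0.0634), not called. The gap between the 2 probe sets' differences was 0.19 (SE 0.12, unadjusted p = 0.129).

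The box C/D particles place methyl groups on ribosomal RNA. Fbl, the methyltransferase fibrillarin, had signals of 1206, 1218, 1178 and 1112 on the untreated arrays and 1424, 1360.4, 1347 and 1356 at 1000 µM at its brightest probe set. All 1000 µM arrays were above all untreated ones. The difference was 0.22, with a 95% interval from -0.0041 to 0.44, and its adjusted p was 0.199. Against 100 µM it was 0.28 (adjusted p = 0.157). The second Fbl probe set differed by 0.18 at 1000 µM (adjusted p = 0.344), and there the groups overlapped. Of the core proteins that hold the RNA, Nop58 differed by 0.38, with a 95% interval from -0.09 to 0.84, and Nop56 by -0.07.

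The box H/ACA particles turn uridines of ribosomal RNA into pseudouridines, and 4 genes of this group were measured: the core proteins Nhp2, Gar1 and Nop10, and Nolc1, a nucleolar chaperone of small nucleolar RNPs. All 4 differences at 1000 µM were above 0, from 0.07 for Nolc1 to 0.26 for Gar1. At 1423211_at the signals of Nop10 were 2653, 2270.3, 2340.2 and 2429 on the untreated arrays, 3123, 2411, 2496 and 2319 at 1 µM, 2751, 2456, 2502 and 2420.0 at 10 µM, 2622, 2534, 2577 and 2504 at 100 µM and 2891, 2921, 2951 and 2944 at 1000 µM. The 1000 µM arrays lay close together and above every untreated array, but the 1 µM array numbered 1 was higher still. This probe set rose at 1000 µM by 0.27 (SE 0.08, adjusted p = 0.0333). The brightest Nop10 probe set gave 0.19 (SE 0.07, adjusted p = 0.0804), not called, and there too all 1000 µM arrays were above all untreated ones. Leaving out 1 array of the 2 groups ended the call of 1423211_at in 7 of 8 fits, all but the one without the untreated array numbered 1, with differences from 0.24 to 0.32 and adjusted p from 0.0223 to 0.0973.

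11 genes of the small subunit were measured, mostly parts of the processome that cuts the precursor of the small subunit's ribosomal RNA. Their differences ran from -0.32 for Utp20 to 0.40 for Rrp9 at 1000 µM, with 5 above 0 and 6 below. Rrp9 and Bms1 are described because they were the extremes at 100 µM, a choice made after their values were seen. Rrp9, a protein bound to the U3 small nucleolar RNA, had signals of 145, 296, 294 and 289 on the untreated arrays and 489, 329.8, 313 and 339.6 at 100 µM. The untreated array numbered 1 was far below its group, and the groups did not overlap. The difference at 100 µM was 0.56 (SE 0.19, adjusted p = 0.205). It rested in part on that array: without it the difference was 0.31 (SE 0.14, adjusted p = 0.51) at 100 µM and 0.14 (SE 0.14, adjusted p = 0.583) at 1000 µM, and within the arrays numbered 2 to 4 it was 0.16 (SE 0.11, adjusted p = 0.529) and 0.20 (SE 0.11, adjusted p = 0.219). Bms1, a GTPase of the processome, had 379, 324, 305 and 303 untreated and 285, 233, 211 and 245 at 100 µM. All 4 arrays at 100 µM were below the untreated ones, and the difference was -0.43 (SE 0.16, adjusted p = 0.247).

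Utp20 is a scaffold protein of the processome. Its signals were 463, 364, 347 and 353 on the untreated arrays, 513, 335, 349 and 387 at 1 µM, 523, 356, 364 and 381 at 10 µM, 536, 377, 299 and 300.4 at 100 µM and 429, 259, 278 and 276 at 1000 µM. The first array was the highest at every dose, and the 3 others at 1000 µM were below all other arrays of the series. The difference at 1000 µM was -0.32 (SE 0.19, adjusted p = 0.317), not called. Heatr1, which supports transcription of ribosomal DNA as well as processing, differed by -0.19 at its brightest probe set and by -0.76 at a dim one (adjusted p = 0.0679), which reached the filter on 13 of 20 arrays.

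None of the other 7 small-subunit genes was called at 1000 µM. The WD-repeat proteins of the processome, Wdr43, Wdr75 and Utp18, differed by -0.01, 0.02 and 0.24. Nop14, which binds the processome's methyltransferase, was at -0.22, after 0.26 at 100 µM. Tsr1, which checks the late subunit in the cytoplasm, was at 0.05, after 0.30. The RNA helicases Ddx10 and Ddx52 were at -0.23 and 0.01. Second probe sets gave -0.21 for Wdr43, -0.26 for Wdr75, -0.22 for Ddx10 and -0.28 for Ddx52 at 1000 µM, none called.

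The large subunit is the widest group, with 15 genes measured. Its median difference was 0.12 at 1000 µM, with 9 above 0 and 6 below. Pes1, Bop1 and Wdr12 form the complex that processes the precursor of the large ribosomal RNAs. The signals of Pes1 were 468, 494, 591 and 541 on the untreated arrays and 599, 581, 554 and 597 at 1000 µM. Those of Bop1 were 1632, 1547, 1606 and 1534 on the untreated arrays and 1652, 1496, 1475 and 1523 at 1000 µM. Those of Wdr12 were 496, 436, 389.8 and 382 on the untreated arrays and 679.6, 357, 461 and 404 at 1000 µM. The groups overlapped for all 3 genes, and the 1000 µM array numbered 1 of Wdr12 was well above its group. The difference at 1000 µM was 0.16, with a 95% interval from -0.03 to 0.35, for Pes1. For Bop1 the difference was -0.04, with a 95% interval from -0.19 to 0.11, and turned to 0.08 when arrays were centred on their medians. For Wdr12 it was 0.12, with a 95% interval from -0.28 to 0.53, and none of the 3 was called. Second, dimmer probe sets gave 0.06 for Pes1 and -0.47 for Wdr12, neither called.

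Nop16, a nucleolar protein of the early large subunit, had signals of 789.7, 555, 553 and 601 on the untreated arrays, 852, 680.5, 613 and 566 at 1 µM, 951, 598, 595 and 647 at 10 µM, 892, 609, 585 and 609 at 100 µM and 1132, 661, 672 and 667 at 1000 µM. The first array was the highest at every dose. Among the other 15 arrays, the 1000 µM ones were 661, 672 and 667, above the 3 untreated ones. The difference over all 4 arrays was 0.30 (SE 0.19, adjusted p = 0.345).

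Rrp1b, a nucleolar relative of the yeast processing factor Rrp1, had signals of 432, 321, 332 and 311 on the untreated arrays, 427, 262, 300.5 and 262 at 1 µM, 458, 287, 284 and 275 at 10 µM, 562, 346, 319.8 and 324 at 100 µM and 355, 212, 206 and 255 at 1000 µM. The first array was the highest at every dose, and the other 3 at 1000 µM were below all other arrays. The difference at 1000 µM was -0.46 (SE 0.22, adjusted p = 0.176), and against 100 µM it was -0.59 (SE 0.22, adjusted p = 0.136). Its other probe sets gave -0.24 and -0.31 against untreated arrays. The dimmest, 1452118_at, passed the F-test over the doses with an adjusted p of 0.023. It differed by 0.48 at 1 µM from untreated arrays and by -0.50 between 100 and 1000 µM, neither called.

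In the fit by dose alone the other large-subunit genes were not called at any dose at their brightest probe sets. Rrp1, whose 1000 µM arrays all lay above the untreated ones, had signals of 1876, 1946, 1863 and 1833 on the untreated arrays and 2219.9, 2113, 2076 and 2091 at 1000 µM. The gap between the groups was narrow, and the difference was 0.18 (SE 0.07, adjusted p = 0.119). Among the GTPases Gnl3, also known as nucleostemin, was at 0.18. The RNA helicases Ddx18, Ddx21 and Ddx56 were at -0.03, -0.09 and 0.17. Nop2 was at -0.17, the assembly factors Rrs1 and Nip7 at -0.08 and 0.12, and Ebna1bp2 at 0.20. Second probe sets gave 0.09 for Rrp1, 0.01 for Ddx18, -0.20 for Ddx21, -0.22 for Nip7 and -0.17 for Ebna1bp2, none called.

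At the low doses the genes with an unadjusted p under 0.05 at their brightest probe sets lay above 0 there. At 1 µM they were Nop10 (0.16), Wdr43 (0.27), Nip7 (0.28) and Ddx56 (0.31), and at 10 µM Nop56 (0.28), Nip7 (0.31), Pes1 (0.24) and Ddx56 (0.26). Nip7 and Ddx56 were in both sets, which share the untreated arrays. The second probe set of Nip7 gave -0.17 at 1 µM and -0.13 at 10 µM, and that of Wdr43 -0.13 at 1 µM. Those of Nop10 at 1 µM (0.09) and of Nop56 (0.19) and Pes1 (0.10) at 10 µM lay above 0. None of these second probe sets was called at these doses. At 1000 µM none of the genes named was called at its brightest probe set in the fit by dose alone. The summed signal of the 11 markers of cycling undifferentiated cells was also higher at these doses, 18600 to 19271 at 1 µM and 18275 to 19094 at 10 µM against 16500 to 17630 on the untreated arrays, with no overlap. Of these markers 9 of 11 lay above 0 at each of the 2 doses and 0 were called, and their part in the values of the 37 genes was not tested. The sum was 16646 to 17158 at 100 µM and 17273 to 20789 at 1000 µM, both overlapping with the untreated range. Single markers did change at these doses. At 100 µM 8 of 11 lay below 0 and 1 fell, Plk1 (-0.44, adjusted p = 0.0202), beside 0.404% of all genes fallen. At 1000 µM 6 of 11 lay below 0. There Mki67 fell (-0.50, adjusted p = 0.00268) and Pcna rose (0.33, adjusted p = 0.0131), beside 8.05% of all genes fallen and 2.64% risen.

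**Figure D2:**
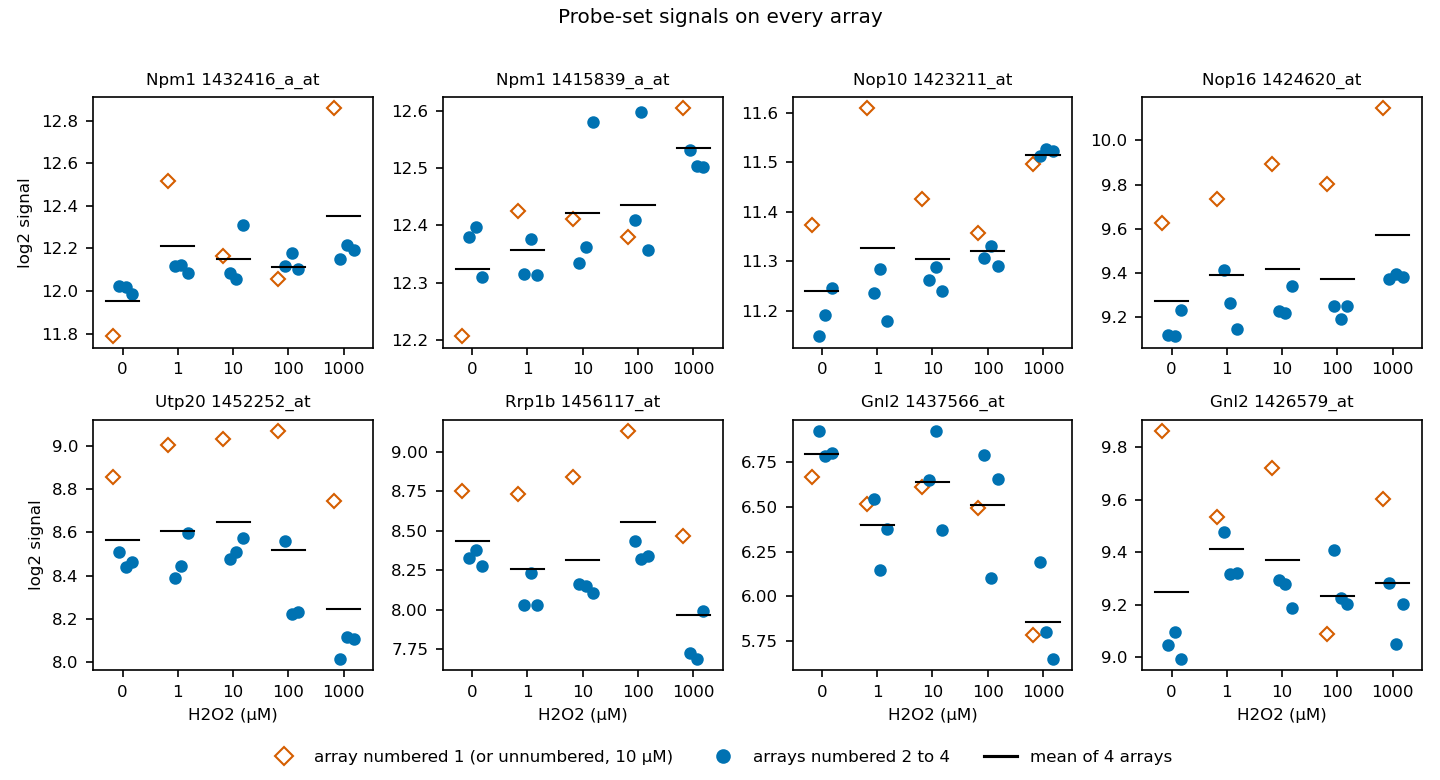
Log2 signal (y axis) of 8 probe sets on every array by H2O2 dose in µM (x axis): diamonds are the 5 arrays numbered 1 or unnumbered, circles the 15 others, and bars the mean of 4 arrays. In Nop16, Utp20 and Rrp1b the diamond is the highest point of every dose, and in Gnl2 the dim probe set 1437566_at is low at 1000 µM while the bright 1426579_at is not.

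Over all probe sets rather than genes, 2 of 64 tested member probe sets had risen at 1000 µM (2.46% of all 14379) and 1 of 64 had fallen (8.48%). The 2 that rose are those of Npm1 and Nop10 given above. With quantile normalization neither was called, Npm1 at 0.24 (adjusted p = 0.280) and Nop10 at 0.18 (adjusted p = 0.277), and with no filter on dim probe sets both missed the threshold as well (adjusted p = 0.0721 and 0.0514). The F-test called 2 of 64 (8.01% of all), 1452118_at of Rrp1b and 1437566_at of Gnl2. The other 2 of the 66 probe sets, the second of Nop16 and the third of Ddx18, were too dim to be tested.

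The probe set that fell belongs to Gnl2, a GTPase needed to mature and export the large subunit. At 1437566_at the signals were 102, 121, 110.3 and 112 on the untreated arrays, 92, 93, 71 and 83 at 1 µM, 98, 100.4, 122 and 83 at 10 µM, 90.2, 111, 69 and 101 at 100 µM and 55, 73, 56 and 50.2 at 1000 µM. At 1000 µM 3 of the 4 arrays were below every array of the other doses, and the other was within the range of the 1 and 100 µM arrays. All 4 were below the untreated ones. The fall at 1000 µM was -0.94 (SE 0.19, adjusted p = 0.00373), and it was called in all 8 fits without 1 array of the 2 groups. This probe set is dim: it reached the filter on 10 of the 20 arrays. The filter asks for 4 or more arrays of any dose, so the 1000 µM arrays need not be among them. At such low signals the size of the fall is inexact, also where the call held. At the brightest probe set, 1426579_at, the signals were 930.0, 529, 548 and 509.9 on the untreated arrays and 778, 623, 529.7 and 588 at 1000 µM, with the first array the highest of each group, and the groups overlapped. The difference there was 0.03 (SE 0.16, adjusted p = 0.921). The third, 1437565_a_at, gave -0.19. The gap between the dim and the brightest probe set's difference was -0.97 (SE 0.23, adjusted p = 0.0571). In that comparison, chosen after the data were seen, 0 of 27 member pairs were called and 0.606% of all 5112 pairs were.

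With a term for the 5 arrays set apart, more of the 37 genes passed the test at 1000 µM. At 1000 µM 6 of 37 rose, where 7.64% of all genes did, and 3 of 37 fell, where 14.7% did. At 1, 10 and 100 µM 0 of 37 were called, beside 0.11%, 0.0245% and 4.31% of all genes. The F-test called 7 of 37 (20.4% of all genes): Fbl, Nop56, Wdr43, Utp20, Nop2, Nop16 and Rrp1b.

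The 6 that rose are Npm1, 3 proteins of the small nucleolar particles and 2 of large-subunit assembly. Nop16 rose by 0.30 (SE 0.07, adjusted p = 0.00533) and Nop58 by 0.38 (SE 0.13, adjusted p = 0.0344). Gar1 rose by 0.26 (SE 0.08, adjusted p = 0.0215) and Nop10 by 0.19 (SE 0.06, adjusted p = 0.0192). Npm1 rose by 0.21 (SE 0.07, adjusted p = 0.0284), and Ebna1bp2, a large-subunit assembly factor, by 0.20 (SE 0.07, adjusted p = 0.0385). Of the 3 that fell, Rrp1b showed -0.46 (SE 0.09, adjusted p = 0.000998). Utp20 showed -0.32 (SE 0.09, adjusted p = 0.0144) and Heatr1 -0.19 (SE 0.07, adjusted p = 0.0405). All 6 rises and 3 falls are under 0.5 in size.

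Within the 15 arrays without the 5, at 3 arrays a dose, 2 of 37 rose at 1000 µM (5.63% of all genes) and 2 of 37 fell (12.4%), and all 4 are among the 9 just named. They are Nop10 at 0.20 (SE 0.06, adjusted p = 0.036) and Nop16 at 0.23 (SE 0.07, adjusted p = 0.0433), which rose, and Utp20 at -0.39 (SE 0.10, adjusted p = 0.0115) and Rrp1b at -0.52 (SE 0.10, adjusted p = 0.00163), which fell. Npm1, at 0.15 (SE 0.07, adjusted p = 0.161), was not called there, and neither were Nop58, Gar1, Ebna1bp2 and Heatr1.

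Between 100 and 1000 µM the fit with the term called 0 of 37 risen (2.97% of all genes) and 3 of 37 fallen (8.6%). They were Rrp1b, at -0.59 (SE 0.09, adjusted p = 0.0002), Nop14, a processome factor, at -0.48 (SE 0.14, adjusted p = 0.0321), and Nop2, a methyltransferase of the large ribosomal RNA, at -0.32 (SE 0.09, adjusted p = 0.0217). Within the 15 arrays 2 of 37 fell (6.95% of all genes), Rrp1b at -0.56 (SE 0.10, adjusted p = 0.00182) and Nop2 at -0.32 (SE 0.10, adjusted p = 0.0485).

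As a group the 37 genes were higher on the 5 arrays set apart. The mean log2 signal of the 37 was 9.67 to 9.84 on the 5 arrays and 9.46 to 9.57 on the 15 others, with no overlap, while the mean over all genes was 8.93 to 9.03 and 8.97 to 9.05. In the comparison of the 4 arrays numbered 1 with the arrays numbered 2 to 4, made after the data were seen, 23 of 37 genes were higher (17.8% of all genes) and 1 of 37 was lower (23.9%). The median difference was 0.26 for the 37 and -0.02 for all genes. The shift was not particular to the 37. Of 108 other genes of the pathway, described further below, 54 were higher and 4 lower, with a median of 0.22. The unnumbered 10 µM array took no part in that comparison.

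**Figure D3:**
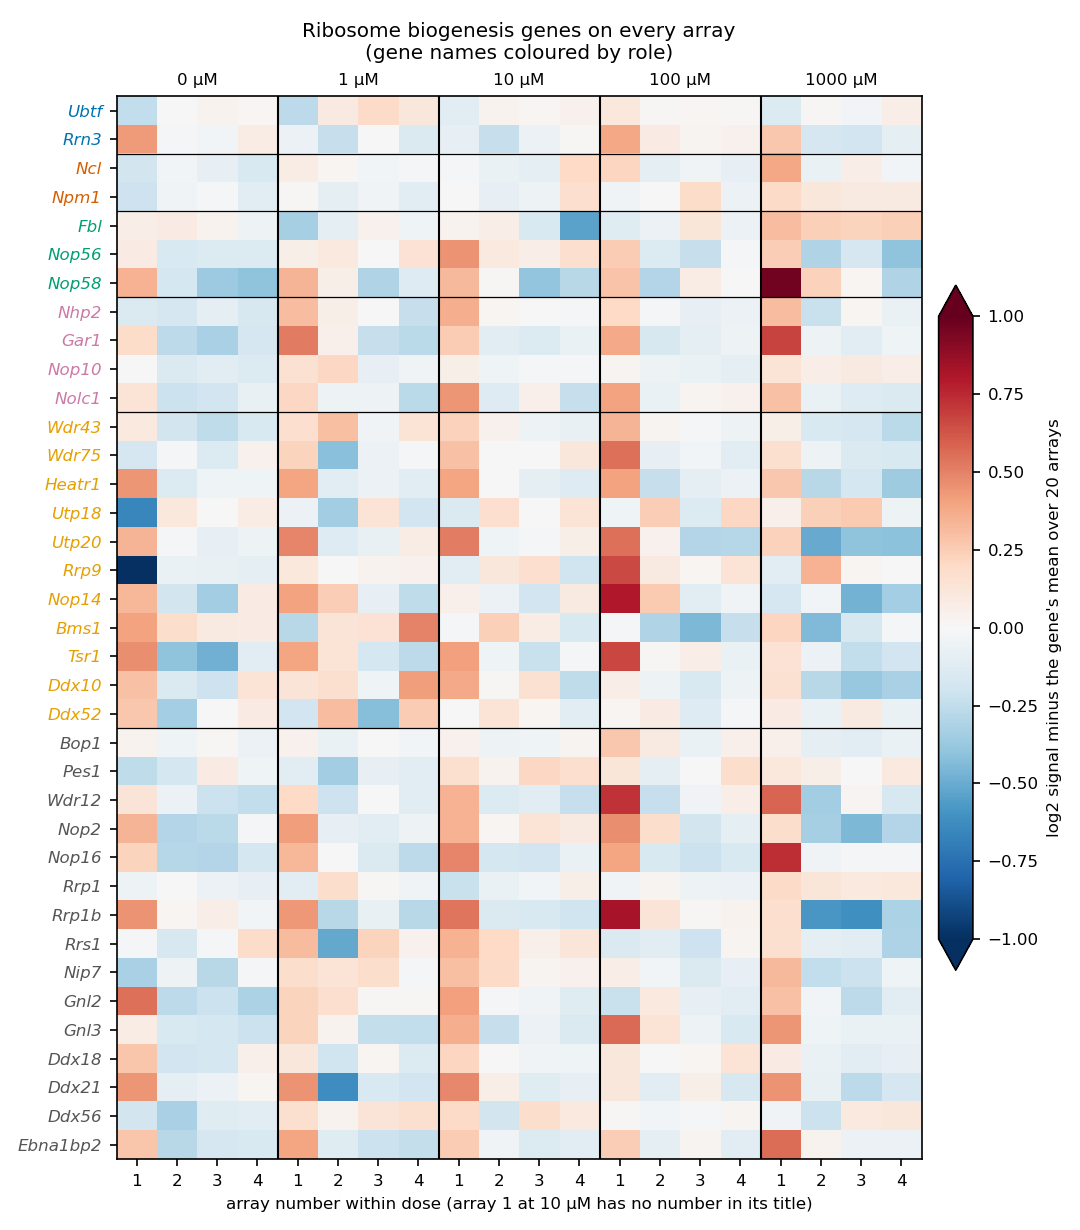
Log2 signal of the brightest probe set of each of the 37 genes (rows, grouped by role) minus that gene's mean over the 20 arrays, for every array (columns, by H2O2 dose in µM and array number); red is higher, blue lower, and the scale is cut at 1. The first column of each dose is red for most rows, with 24, 24, 25, 27 and 31 of 37 genes highest of their dose there, from 0 to 1000 µM.

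The first array was the highest of its dose for 24 of 37 genes untreated, 24 at 1 µM, 25 at 10 µM, 27 at 100 µM and 31 at 1000 µM. At all 4 doses with an array numbered 1 that array was the highest for 14 genes and the lowest for 0. By role, 10 of 15 large-subunit genes were higher on arrays numbered 1, 6 of 11 small-subunit genes, 3 of 4 of the H/ACA group, 2 of 3 of the C/D group, and Ncl but not Npm1.

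The largest differences by array number were 0.63 (SE 0.08, adjusted p = 2.15e-06) for Rrp1b, 0.62 (SE 0.10, adjusted p = 0.000106) for Nop58 and 0.58 (SE 0.06, adjusted p = 5.88e-07) for Gar1. Utp20 and Nop16 were higher too, by 0.58 and 0.57. Between the 2 polymerase I factors the direction differed. Rrn3 was higher by 0.31 (SE 0.07, adjusted p = 0.000963), and Ubtf was the 1 gene lower, at -0.18 (SE 0.06, adjusted p = 0.0184). The abundant Npm1 (-0.01 (SE 0.06, adjusted p = 0.881)), Fbl at -0.08 and Pes1 at 0.0024 were not called.

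**Figure D4:**
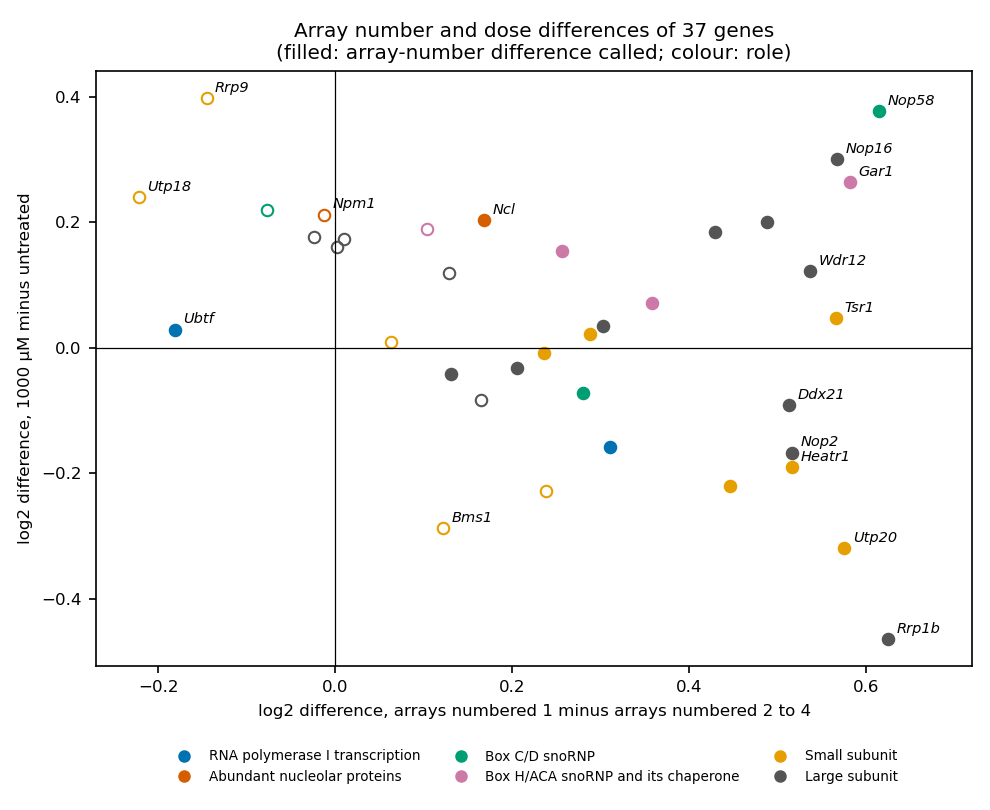
Log2 difference between arrays numbered 1 and arrays numbered 2 to 4 (x axis) and between 1000 µM and untreated arrays (y axis) for each of the 37 genes, coloured by role; filled points were called by array number. The 23 filled points right of 0 spread over both sides of 0 on the dose axis, from -0.46 for Rrp1b to 0.38 for Nop58, and Ubtf is the filled point on the left.

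Other measures moved with the same 5 arrays, and their part in these differences was not tested. The summed signal of the 6 fibroblast markers was 14436 to 17708 on the 5 arrays and 23417 to 31746 on the others, with no overlap. That of the 13 myotube markers was 76364 to 103603 and 86406 to 119859, and that of the 11 markers of cycling cells 16500 to 20789 and 16646 to 18986. The log2 ratio of the 3' to the 5' control probe set, a sign of RNA integrity, was -0.41 to -0.18 and -0.36 to -0.25 for Gapdh, and -0.11 to 0.27 and 0.08 to 0.19 for beta-actin.

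The rest of the pathway was taken from a wider list of 141 symbols, of which 108 were tested. Some of the symbols are old and new names of the same gene. At 100 µM 0 of 108 were called. At 1000 µM 1 of 108 rose and 6 of 108 fell, against the 2.64% and 8.05% of all genes, and their median difference was -0.01. Of the 14 polymerase I factors 2 fell. Taf1c, a subunit of the promoter selectivity factor SL1, fell, with a difference of -1.40 (SE 0.26, adjusted p = 0.00154). Its signals were 138, 162, 148 and 110.4 untreated and 38, 99, 32 and 61 at 1000 µM. The groups did not overlap, and the probe set, a dim one, reached the filter on 16 of 20 arrays. Baz2a, which silences copies of ribosomal DNA, fell, at -0.52 (SE 0.08, adjusted p = 0.000333).

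Of the 39 other large-subunit genes 4 fell. Mdn1, the large ATPase that strips factors from the pre-ribosome, showed -0.83 (SE 0.26, adjusted p = 0.0465), Ppan -0.48 (SE 0.15, adjusted p = 0.0412) and Surf6 -0.46 (SE 0.12, adjusted p = 0.0213). The fourth, Pelp1, showed -0.40 (SE 0.09, adjusted p = 0.00685), and its dimmer probe set -0.44, not called. Leaving out 1 array of the 2 groups ended the call of Ppan in 8 of 8 fits, of Mdn1 in 7 and of Surf6 in 3, and of Taf1c, Baz2a and Pelp1 in 0. Among 38 small-subunit genes Tsr2, a chaperone of a ribosomal protein, rose by 0.53 (SE 0.13, adjusted p = 0.0135), while its dimmer probe set gave -0.38, not called. Of the 6 snoRNP assembly and 11 exosome genes 0 were called. With the term for the 5 arrays 5 of 108 rose and 12 fell, beside 7.64% and 14.7% of all genes. With median centring the split turned to 7 risen and 3 fallen, beside 8.64% and 3.75% of all genes. Mdn1, Ppan and Surf6 were not called with median centring or with quantile normalization.

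**Figure D5:**
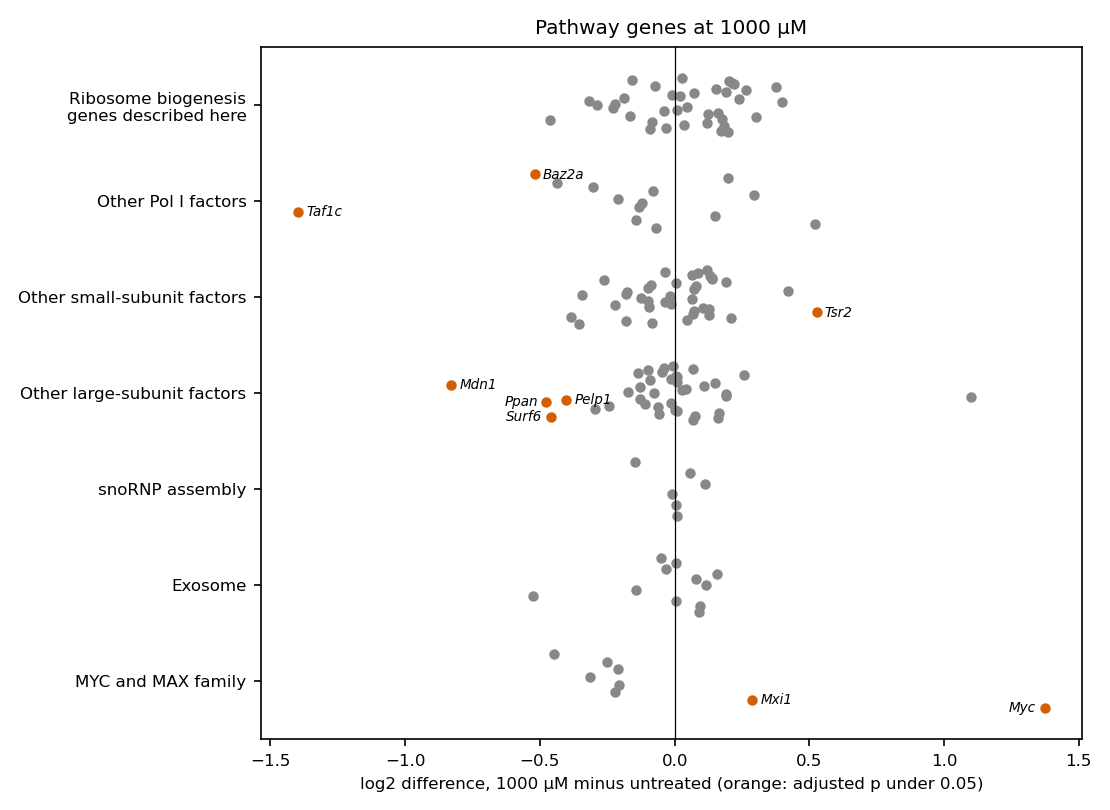
Log2 difference at 1000 µM against untreated arrays (x axis) for the 37 genes and for the other pathway genes and the MYC and MAX family (rows), 1 point a gene; orange points were called. The 37 genes hold no orange point and lie between -0.46 and 0.40, while Taf1c is at -1.40 and Myc at 1.37.

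Of the MYC and MAX family 8 genes were tested. Myc, the activator of many ribosome biogenesis genes, had signals of 512, 368, 421 and 385 on the untreated arrays, 569.5, 369, 440.2 and 402 at 1 µM, 485, 389.5, 451 and 452 at 10 µM, 840.0, 716, 707 and 819 at 100 µM and 1088, 1018, 1094 and 1134 at 1000 µM. The 100 µM and 1000 µM arrays were all above the untreated ones. Myc rose by 0.88 (SE 0.12, adjusted p = 0.000244) at 100 µM and by 1.37 (SE 0.12, adjusted p = 4.30e-07) at 1000 µM. Mxi1, a partner of MAX that represses, rose by 0.29 (SE 0.08, adjusted p = 0.0198) at 1000 µM, a call lost without 1 array in 4 of 8 fits. At the same 2 doses 0 of the 37 ribosome biogenesis genes were called with the deposited scaling, beside the 0.993% risen and 0.404% fallen of all genes at 100 µM and the 2.64% and 8.05% at 1000 µM. At 1000 µM that count depended on the fit: 9 of 37 were called with the term for the 5 arrays (6 risen and 3 fallen), 7 with the replicate number as a block (5 risen, beside 6.28% of all genes, and 2 fallen, beside 13.2%), and 5, all risen, with median centring (8.64% of all genes risen and 3.75% fallen).

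Because Myc mRNA rose, the promoters of the 37 genes were searched for the canonical E-box CACGTG, the letters that MYC and MAX dimers bind. RefSeq windows of GRCm38.p6, from 250 bases before to 50 after a gene's start, were found for 32 of the 37 genes, 40 windows in all. CACGTG reads the same on both strands. It stood in 7 of the 40 windows (17.5%), 1 each of 7 genes, and in 7.15% of the 32851 windows of all genes. The palindrome CTCGCGAG, which overlapped no E-box there, stood in 1 of 40 (2.5%), that of Tsr1, and in 0.919% of all windows.

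The sites of 6 of the 7 genes are shown with 12 bases on either side, as these are the members with the letters of the factor that rose; the E-box is in capitals and each run reads 5′ to 3′ on the gene's own strand.
Nop2, chr6:125131811-125131840, plus strand: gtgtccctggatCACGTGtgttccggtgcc
Pes1, chr11:3963965-3963994, plus strand: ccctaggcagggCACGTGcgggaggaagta
Rrn3, chr16:13780472-13780501, plus strand: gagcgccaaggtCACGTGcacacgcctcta
Rrn3, chr16:13780639-13780668, plus strand: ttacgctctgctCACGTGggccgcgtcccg
Tsr1, chr11:74898092-74898121, plus strand: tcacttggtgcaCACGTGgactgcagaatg
Utp18, chr11:93885769-93885798, minus strand: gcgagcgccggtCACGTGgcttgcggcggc
Wdr43, chr17:71616220-71616249, plus strand: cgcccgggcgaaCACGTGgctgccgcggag
The sites of Nop2, Rrn3 and Utp18 start before the gene's start, 60 bases before it in Nop2, 215 and 48 in Rrn3 and 20 in Utp18. Those of Pes1, Tsr1 and Wdr43 lie in the first transcribed bases, at base 3, 25 and 18. In Utp20 the letters begin at base 38, too near the window's end to be shown.

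At 1000 µM the 7 genes with an E-box differed by -0.17 (Nop2), 0.16 (Pes1), -0.16 (Rrn3), 0.05 (Tsr1), 0.24 (Utp18), -0.32 (Utp20) and -0.01 (Wdr43), and 0 of 7 were called. They lay on both sides of 0. A match of letters is no measured site, and a window without them says nothing of MYC.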

How the data were processed

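The intensity values were deposited as linear probe-set signals that the authors made with Affymetrix Microarray Suite 5.0, per the series' design text; MAS5 is named in the submitters' processing notes. The 2% trimmed mean of each array was 500.1 to 500.2, and the median signal 150.9 to 185.2. Each array was read as 1 channel, although the labels name 2 dyes. No other column was used.

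Arrays were scaled to the same trimmed mean, floored at 1 and put on the log2 scale. Probe sets above the 40th percentile of the array on 4 or more arrays were tested, 14379 of 22626. Arrays have no read depth, and the 4 arrays a dose limit the precision. The 5 groups were fitted together with limma 3.58.1 (R 4.3.3; lmFit, eBayes with an intensity trend), two-sided, with Benjamini-Hochberg adjustment over all tested probe sets. On simulated arrays with independent noise, most planted changes of 1 in either direction were recovered. Smaller differences, and arrays that deviate together, were not simulated.

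Groups come from the sample titles. In 1 title of the 1 µM dose the unit is misspelt; µM was taken. The unnumbered 10 µM array was placed with the arrays numbered 1 because its values grouped with theirs. Symbols are those of the platform annotation, which can be old. Named with values were members called in any comparison, the nucleolar genes Ncl, Npm1, Fbl, Pes1, Bop1, Wdr12, Ubtf and Rrn3, and up to 5 risen and 5 fallen other pathway genes, with Pelp1, a sixth, added after its value was seen. Members called with the term for array number, Rrp9 and Bms1 were named after their values were seen. The members and lists were chosen with earlier results of these data known. The comparisons of array numbers and of probe-set pairs were added after the data were seen. The promoter search covered exact letters only.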

Additional observations from a re-analysis of the deposited data

Results flagged for a closer look

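In groups of 4 arrays, 1 array stood far from the other 3 in 18 of 85 groups looked at, by the gap to its nearest neighbour as a share of the group's range (Dixon's test, 95% limit). Chance gives about 1 in 20. In 17 of the 18 the array was the one numbered 1, or the unnumbered one at 10 µM.

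The mean log2 signal over the 37 genes was high on that array at 1 µM (9.75), 10 µM (9.80), 100 µM (9.84) and 1000 µM (9.83).

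Npm1 at 1432416_a_at was high on the array numbered 1 at 1 µM (a signal of 5867) and at 1000 µM (7419). Nop16 at 1424620_at was high on it at 100 µM (892) and 1000 µM (1132). Utp20 at 1452252_at was high on it without H2O2 (463) and at 1000 µM (429). Rrp1b at 1456117_at was high on the unnumbered array at 10 µM (458) and on the array numbered 1 at 100 µM (561.5). Gnl2 at 1426579_at was high on it without H2O2 (930.0), and Rrn3 at 1415725_at at 100 µM (651.5).

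Ubtf at 1453097_a_at was low on the array numbered 1 without H2O2 (698) and on the unnumbered array at 10 µM (771), and high on the array numbered 1 at 100 µM (889.9). The flagged array outside this set is the second at 1 µM for Pes1 at 1416172_at, which was low (436).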

How the results depend on the processing

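Each comparison was repeated under the alternatives, one at a time. Of the values for the counts over these genes 176 stayed within 1.5 times the first count and 38 moved. Counts of 0 in both fits are among those that stayed. The other values were those of single probe sets and counts of other pathway genes. Of these 999 stayed, 57 lost the call, 31 gained it, 35 moved and 0 reversed. The cause of a change was not tested, apart from what the alternative itself removes. Members called at 1, 10 and 100 µM stayed at 0 in every fit, except 1 at 100 µM, Bms1, with array weights (3.36% of all genes fell there).

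Numbers shared between doses were not taken to pair the samples as a whole, since not every correlation of same-numbered deviations was over 0.1. They were 0.46 to 0.51 for number 1, 0.109 to 0.245 for number 3, 0.053 to 0.195 for number 2 and 0.0099 to 0.261 for number 4, so that arrays numbered 1 did deviate together. In all, 4 of 19 arrays correlated best with their own number. With the replicate block on the numbered arrays, members called at 1000 µM were 7 (5 risen, 2 fallen; 6.28% and 13.2% of all genes), between 100 and 1000 µM 3, all fallen (7.42%), and over the doses 5 (15.5%). Their probe sets called were 1 at 100 µM and 11 at 1000 µM, and 1 pair of probe sets was unequal. For probe sets and pairs the share over all was not taken in the alternative fits. Their numbers, here and below, are therefore not read as a result about these genes.

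With the term for arrays numbered 1 the same counts were 9, 3, 7, 1, 13 and 1, and within replicates 2 to 4 they were 4, 2, 6 (19.5% of all genes), 1, 6 and 1. Array weights gave 7 (4 risen, 3 fallen; 10.3% and 19.4% of all genes), 6 (3 risen, 3 fallen; 5.56% and 13.1%), 11 (32.1%), 1, 11 and 1.

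Median centring called 5 members, all risen (8.64% of all genes), and 8 of their probe sets at 1000 µM, and 2 members over the doses (7.18%). Quantile normalization, and no filter on dim probe sets, each called 1 probe set at 1000 µM. The mean over a gene's probe sets called 2 members at 1000 µM, both risen (2.84%). A stricter filter, and no intensity trend, each made 1 pair unequal. Leaving out 1 array gave 1 to 2 probe sets called at 1000 µM and 0 to 1 pairs.

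The count by array number, 24, ran from 18 (array weights) to 26. Dim probe sets, such as 1437566_at of Gnl2, are the least exact.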
